A study of Brassica napus with 6 samples.

Results

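A set of 60 genes of oilseed rape (Brassica napus) was almost unread in seeds 30 days after flowering and was read at a clear level in all seeds of day 50. The genes were taken from the 68938 rows with an ID that begins with Bna, among 72611 rows in all. The genes were selected on their levels at days 30 and 50: at most 3 reads in both libraries of day 30 together, and at least 10 CPM (counted reads per 1000000 reads of the library) in each library of day 50. Those levels are therefore given as a description. The levels of day 40 and the ratios of drought to control at days 40 and 50 were not used in the choice, although the limit at day 50 applied to both treatments. The groups were seeds of plants droughted from the start of flowering, at days 30, 40 and 50, and seeds of control plants at the same days, all grown under a rain shelter. Each group had 1 library of seed RNA. The growth label speaks of 6 lines and does not say which line or lines stand behind a library, and nothing in the labels speaks of pooled plants. A difference between lines or plants therefore cannot be told apart from drought.

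Seeds of this crop first form the embryo, then fill it with oil and storage protein, and then lose water. The last phase is known for transcripts that are absent from younger seeds, such as those of late embryogenesis abundant proteins and small heat shock proteins, and it is promoted by the hormone abscisic acid. Brassica napus joins an A and a C subgenome, so most genes have a near-identical copy in the other subgenome. None of the files gives a gene name beside an ID, and the RefSeq table of the Da-Ae assembly held 0 of the 60 IDs, so no function or sequence is given for any gene. Near-identical copies can share reads, and the value of a single gene is uncertain to that extent. Seeds hold several tissues, and more cells of one kind cannot be told apart from more RNA per cell.

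The libraries held 10314859 to 16177156 counted reads, with the lowest total in drought seeds of day 40. In each library, the 10 genes with the most reads together took 24.6% of its total in drought and 12.3% in control at day 40, and 14.4% in drought and 19.4% in control at day 50. Ratios of drought to control were set on a common scale with TMM factors, which centre the bulk of the genes (trimmed mean of M values), while levels are given as CPM of the library total. At day 40 this choice matters: the median log2 ratio of the 25450 genes that averaged at least 5 CPM over the drought and control library of that day (the pair mean) was 0.01 with TMM and -0.47 with library totals alone. At day 50 the medians were 0.06 and 0.03. With 1 library per group, ratios of a single day have no replicate check, and intervals given for them cover counting error only.

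The 60 genes together held a larger part of the drought libraries than of the control libraries at days 40 and 50. In drought seeds they held 39 reads at day 30, 13092 at day 40 and 114720 at day 50, or 0.000241%, 0.127% and 0.764% of the library. In control seeds they held 44, 4301 and 31615 reads, or 0.000360%, 0.0310% and 0.212%. The share in drought was 4.10 times that in control at day 40 and 3.60 times at day 50. The exact 95% binomial intervals ran from 0.125% to 0.129% in drought and from 0.0300% to 0.0319% in control at day 40. At day 50 they ran from 0.759% to 0.768% in drought and from 0.210% to 0.214% in control. These intervals cover counting error only and compare single libraries, and the levels of day 50 were part of the choice of genes. No single gene made up the sum, since the 4 most read genes of each library held 23.9% and 29.2% of the set's reads in drought seeds of days 40 and 50, and 24.4% and 19.4% in control seeds.

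The median gene of the set stood at 0, 14.6 and 98.0 CPM in drought seeds of days 30, 40 and 50. In control seeds the median was 0, 3.45 and 27.1 CPM. The range at day 40 was 2.71 to 104 CPM in drought and 0.288 to 21.3 CPM in control. At day 50 it was 11.0 to 933 CPM in drought and 10.4 to 110 CPM in control, and 29 genes reached 100 CPM in drought against 2 in control. The share of all genes that reached 100 CPM is not given, so the 29 and the 2 are a description. At day 30, 35 of the 60 genes had no read in the drought library and 31 had none in the control library, and 20 had none in either. Another 12 genes had 1 read over both libraries, 13 had 2 and 15 had 3.

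**Figure D1:**
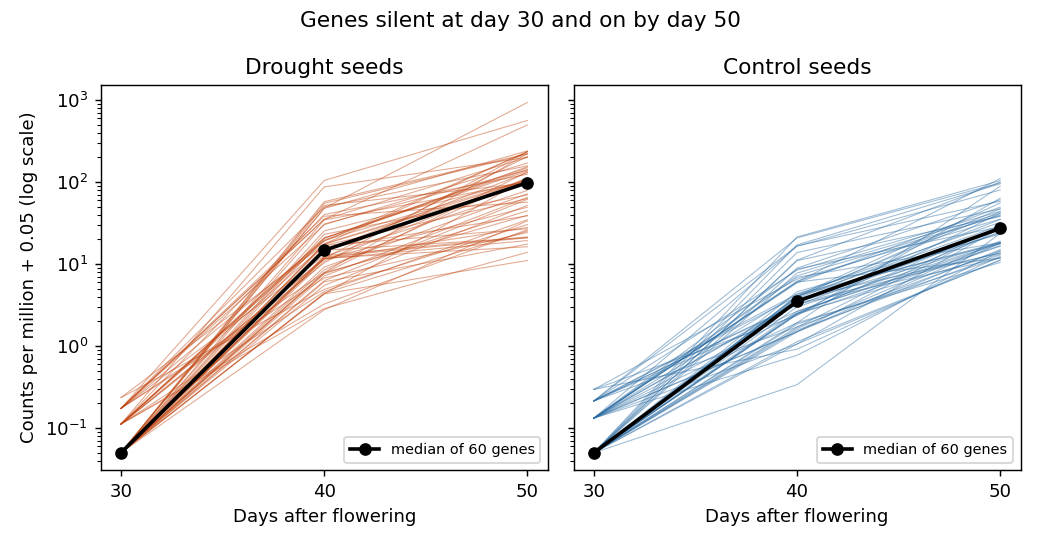
Level of each of the 60 genes (thin lines) at 30, 40 and 50 days after flowering in drought seeds (left) and control seeds (right), in CPM plus 0.05 on a log scale, with the median as black points. The medians at days 40 and 50 are 14.6 and 98.0 CPM in drought and 3.45 and 27.1 CPM in control.

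The lower limit of 10 CPM cut the control library more often than the drought library. Just inside, BnaC02g40590D stood at 11.0 CPM in drought and 10.4 CPM in control at day 50, and BnaA09g31640D at 38.6 and 11.1 CPM. Just outside, BnaC09g08130D stood at 42.4 CPM in drought and 9.92 CPM in control, and BnaCnng60340D at 15.0 and 9.59 CPM. Among Bna genes with at most 3 reads at day 30, 65 reached 10 CPM at day 50 in drought alone and 1 in control alone. The share of all Bna genes that did so is not given, so these counts have no background beside them. The limit on reads cut a continuous range: 15 genes had 3 reads at day 30, and 5 genes with 4 reads also reached 10 CPM in both libraries of day 50.

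The 4 genes with the highest mean CPM at day 50 were all higher in drought, to different degrees. BnaA05g02110D had 0, 494 and 14016 reads in drought seeds of days 30, 40 and 50, against 1, 26 and 1323 in control seeds. These correspond to 47.9 and 933 CPM at days 40 and 50 in drought and to 1.87 and 88.7 CPM in control. It was thus the most read gene of the set in drought at day 50, with 12.2% of the set's reads there. BnaC05g29980D had 104 and 562 CPM at days 40 and 50 in drought, against 11.1 and 99.7 CPM in control. BnaCnng07060D had 35.1 and 496 CPM in drought, against 13.7 and 46.8 CPM in control. BnaA01g19290D, with no read in either library of day 30, had 47.5 and 239 CPM in drought, against 21.3 and 104 CPM in control. In all 4 the drought value lay above the control value on both days. Between genes, levels are comparable only per length. The authors also gave values taken here as FPKM, a scale that corrects fragments for the length of the transcript and for depth. On that scale the set at day 50 ran from 4.17 to 20349 in drought, with a median of 126. In control the set ran from 3.78 to 13612, with a median of 36.6. The highest FPKM belonged to BnaC02g23400D, which is 243 bases long in the deposited table and is named because it held this maximum. It had 87.1 and 200 CPM at days 40 and 50 in drought, against 5.97 and 110 CPM in control. For comparison, BnaA05g02110D, 952 bases long, had an FPKM of 1314 at its 933 CPM in drought at day 50. The FPKM of BnaC02g23400D is thus far above what its count and deposited length alone would give. Other short genes, picked after their values were seen, also had an FPKM far above that. BnaA05g34530D, 443 bases long, had an FPKM of 6756 at 234 CPM in drought at day 50. BnaC01g38130D, 267 bases long, had 4502 at 124 CPM there. The top of the FPKM range should be read with that limit, and its cause was not tested.

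Whether the genes were on by day 40 was asked next. All 60 had reads in both libraries of that day, at least 28 in drought and at least 4 in control. In drought seeds 41 of the 60 genes had reached 10 CPM at day 40, and in control seeds 8 had. The 8 were all among the 41, so that 33 genes had reached 10 CPM in drought alone and 0 in control alone. The share of all genes that did so is not given, so these counts have no background beside them. In drought 0 genes were under 1 CPM, and in control 3 were. In both treatments CPM climbed from day 30 to day 40 and again to day 50 for 60 of 60 genes, where 9.68% of the 13116 Bna genes of at least 10 CPM in both libraries of day 50 showed this order. The choice of genes fixes most of that order, so the share is a description.

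In edgeR's quasi-likelihood test over all 6 libraries, with terms for day and treatment, all 60 genes rose from day 30 to day 40 at an adjusted p below 0.05. Among the 49832 genes tested, 4.49% rose and 2.89% fell. The median log2 fold change of the 60 was 8.27, with a range of 5.32 to 12.28, and the adjusted p ran from 0.000398 to 0.0117. Day 30 was low by choice, so this count carries no weight of its own. From day 40 to day 50, 43 of the 60 rose at an adjusted p below 0.05, where 0.927% of the genes tested did, and 0 fell, where 0.815% did. At an unadjusted p below 0.05 all 60 were higher, where 8.23% of the genes tested were. The other 17 were also higher at day 50, and the median log2 fold change over the 60 was 2.72. Day 50 was high by choice, so this count carries no weight of its own either. Limma voom called 0, where 0.399% of the genes tested were called higher, with 32 of the 60 at an unadjusted p below 0.05. Most of the 43 edgeR calls were lost without the control library of day 40, which left 1 library at that day. The median log2 fold change of the 60 was then 2.32, with 60 above 0. Without the drought library of day 40, which also left 1 library at that day, the median was 3.13, with 60 above 0.

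The genes stood well below their level of day 50 at day 40 in both treatments, and they differed widely among themselves. In drought the day 40 level was a median of 17.8% of that of day 50, with quartiles of 11.2% and 32.4% and a range of 3.53% to 72.5%. In control the median was 14.5%, with quartiles of 8.88% and 19.2% and a range of 1.22% to 50.9%. The other 13056 Bna genes on at day 50 had medians of 79.7% in drought and 113% in control. For 42 of the 60 genes the percentage was higher in drought by library totals, and for 51 with TMM factors. At least 30% had been reached by 17 genes in drought and by 3 in control. Across the 60 genes the percentages in drought and control, which share no library, correlated at 0.379 (Pearson) and 0.445 (Spearman).

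The genes furthest on at day 40, over both treatments, were BnaC09g14380D, BnaCnng23520D and BnaC01g00220D. BnaC09g14380D stood at 12.6 CPM at day 40 and 21.4 CPM at day 50 in drought, against 5.97 and 11.7 CPM in control, so that more than 50% had been reached in both. BnaCnng23520D stood at 38.2 and 56.6 CPM in drought, against 1.01 and 27.4 CPM in control. Its place thus came from the drought library, with 67.5% reached in drought and 3.68% in control. BnaC01g00220D stood at 16.8 and 26.8 CPM in drought, against 8.64 and 28.4 CPM in control. The genes furthest behind were BnaC03g24290D, BnaA08g27570D and BnaC09g31240D. BnaC03g24290D stood at 10.3 and 234 CPM in drought, against 1.44 and 17.8 CPM in control. BnaA08g27570D stood at 4.27 and 112 CPM in drought, against 1.44 and 28.0 CPM in control. BnaC09g31240D, with no read at day 30, stood at 7.85 and 223 CPM in drought, against 1.66 and 29.2 CPM in control. These 3 genes had reached 3.53% to 4.40% in drought and 5.15% to 8.07% in control, lower in drought for each by library totals. With TMM factors BnaA08g27570D stood at 4.28% in drought and 4.21% in control, so its order turned, while the other two stayed lower in drought.

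**Figure D2:**
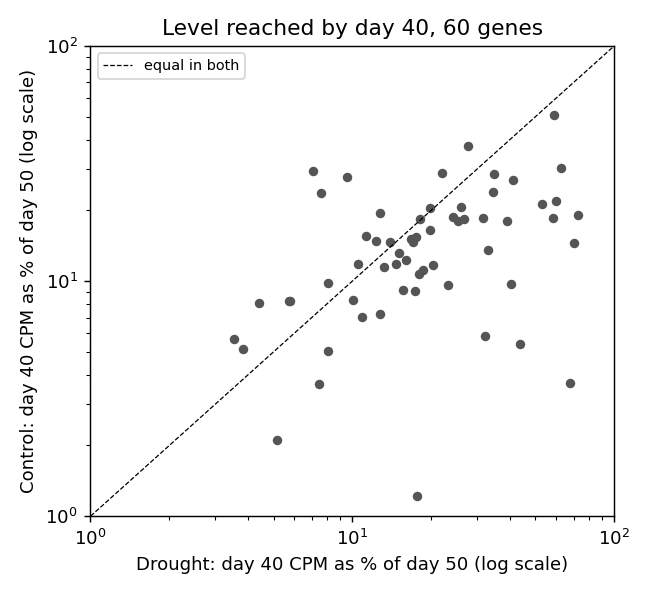
Level at day 40 as a percentage of that at day 50 for each of the 60 genes, in drought seeds (horizontal) and control seeds (vertical), both on log scales, with a dashed line where both are equal. By library totals, 42 of the 60 points lie on the drought side of the line, and the medians are 17.8% in drought and 14.5% in control.

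Drought and control differed at day 40 in one direction across the set. All 60 genes had a higher TMM-scaled level in drought, where 50.8% of all genes with a pair mean of 5 CPM or more had. The median log2 ratio of drought to control was 2.16, with quartiles of 1.78 and 3.12 and a range of 0.35 to 7.02. Of the 49 genes whose pair mean reached 5 CPM, 45 were at least 2-fold higher in drought, where 5.67% of 25450 genes were, and 0 were at least 2-fold lower, where 4.18% were. At least 8-fold higher were 16 of the 49, where 0.193% of all genes were. The counting interval of the ratio lay above 1 for 47 of the 49, where it did for 29.1% of all genes. With library totals in place of TMM, 57 of the 60 were higher in drought and the median log2 ratio was 1.68. The 3 genes whose direction turned were BnaC04g03200D, BnaA09g18230D and BnaCnng18180D, the last chosen after its values were seen.

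At day 40 the drought library stood between the control libraries of days 40 and 50 for most of the set. On the CPM scale, 49 genes were above control day 40 and below control day 50, 8 were above control day 50 and 3 were below control day 40. Of the other Bna genes on at day 50, 9.45% lay between the control libraries in this way. Control day 50 was high by the choice of genes, so the count of 49 is a description. On the log2 TMM scale the drought level lay at a median of 77.5% of the way from control day 40 to control day 50, with quartiles of 59.6% and 95.9%.

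The largest ratios at day 40, ordered by the log2 ratio with the prior of 0.5 reads, rested on low control counts. The ratios given for single genes are scaled counts with no prior. BnaC03g23240D had 310 reads in drought at day 40, against 4 in control, or 30.1 against 0.288 CPM. Its ratio was 146, with a counting interval of 56.3 to 538. BnaCnng23520D had 394 reads in drought, against 14 in control, a ratio of 52.9 with an interval of 31.2 to 97.7. BnaA05g02110D had a ratio of 35.7 with an interval of 24.1 to 55.2, and BnaA05g34530D, next in that order, had 36.7 with an interval of 19.5 to 77.7. On the FPKM scale the log2 ratio of BnaA05g34530D was lower, 3.07 against 5.13 with TMM-scaled counts. At the other end BnaAnng14390D had 121 reads in drought, against 116 in control, a ratio of 1.96 after TMM with an interval of 1.51 to 2.55. BnaA09g18230D had 69 reads in drought, against 95 in control, a ratio of 1.37 with an interval of 0.987 to 1.88. BnaC04g03200D had 56 reads in drought, against 81 in control, a ratio of 1.30 with an interval of 0.908 to 1.85. The intervals of these last 2 genes include 1.

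At day 50 the set was again higher in drought, with a wider spread of directions. The median log2 ratio was 1.43, with quartiles of 0.84 and 2.26 and a range of -1.41 to 4.06. At least 2-fold higher in drought were 41 of the 60 genes, where 9.79% of 24813 genes were. At least 2-fold lower was 1 gene, where 9.52% were. Any amount higher were 58 of the 60 with TMM and 57 with library totals, where 53.5% of all genes were with TMM. At least 8-fold higher were 8 genes, where 0.528% of all genes were. The counting interval lay above 1 for 51 of the 60 genes, where it did for 37.2% of all genes.

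The highest ratios of day 50 belonged to BnaA05g34530D, BnaC03g24290D and BnaCnng07060D. BnaA05g34530D had 3515 reads in drought at day 50, against 213 in control, or 234 against 14.3 CPM, and its ratio was 16.7 with a counting interval of 14.6 to 19.3. At day 40 it had 195 reads in drought, against 10 in control, or 18.9 against 0.720 CPM. On the FPKM scale its log2 ratio at day 50 was 3.66, against 4.06 with TMM-scaled counts, and lay below the 3.72 of BnaC03g24290D on that scale. BnaC03g24290D had 3513 reads in drought, against 266 in control, a ratio of 13.4 with an interval of 11.8 to 15.2. BnaCnng07060D had 7457 reads in drought, against 698 in control, a ratio of 10.8 with an interval of 10.01 to 11.7. The drought library was the higher one for all 3 genes at day 40 as well. The lowest ratios belonged to BnaAnng14390D, BnaC01g00220D and BnaA03g17650D. BnaAnng14390D had 243 reads in drought at day 50, against 654 in control, or 16.2 against 43.8 CPM, a ratio of 0.376 with an interval of 0.324 to 0.437. It was the single gene of the set at least 2-fold lower in drought, and at day 40 it had been higher there. BnaC01g00220D had 403 reads in drought, against 424 in control, a ratio of 0.963 with an interval of 0.838 to 1.11. BnaA03g17650D had 262 reads in drought, against 264 in control, a ratio of 1.01 with an interval of 0.844 to 1.20, and at day 40 it stood at 6.01 CPM in drought, against 4.25 CPM in control.

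**Figure D3:**
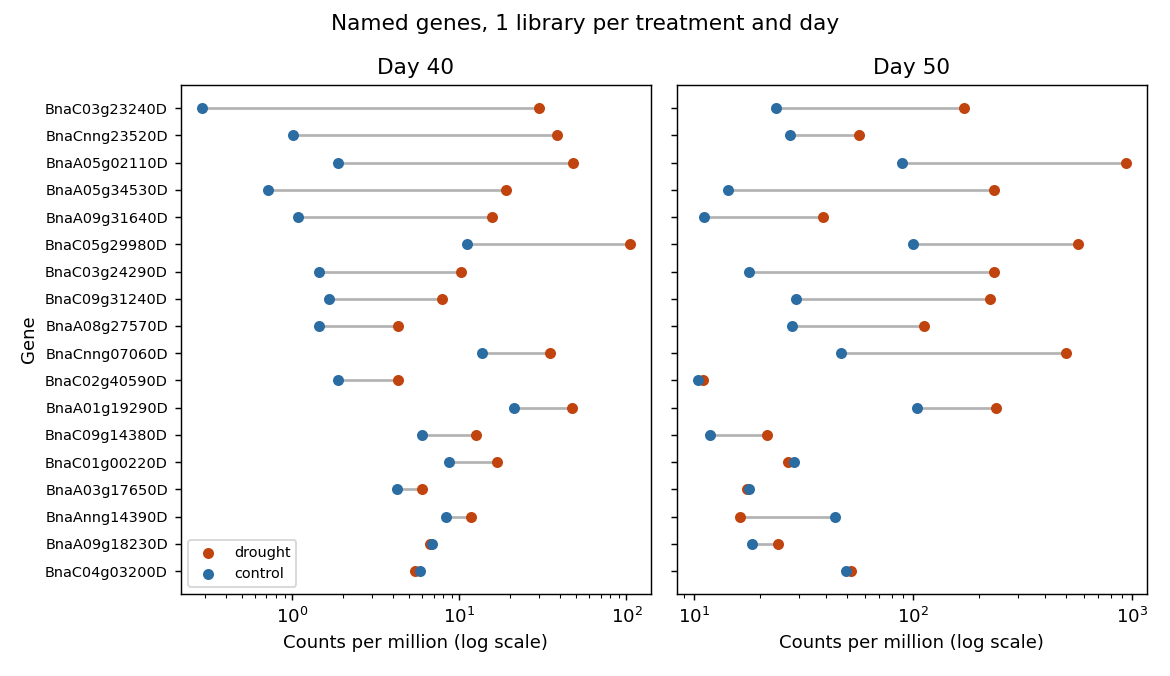
Level of the 18 genes named by rule at day 40 (left) and day 50 (right), in CPM on a log scale, with 1 point for the drought library and 1 for the control library, ordered by the TMM ratio of day 40. At day 50 drought lies below control for BnaAnng14390D (16.2 against 43.8 CPM), BnaC01g00220D (26.8 against 28.4 CPM) and BnaA03g17650D (17.4 against 17.7 CPM).

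Genes with a large ratio at day 40 tended to have a large one at day 50. Across the 60 genes the log2 ratios of both days, which share no library, correlated at 0.577 (Pearson) and 0.619 (Spearman). Over 109 genes with 4 to 30 reads at day 30 the values were 0.621 and 0.626, and over 12981 other Bna genes on at day 50 they were 0.377 and 0.329. Both of these groups were limited to a pair mean of at least 5 CPM at day 40, and the 60 genes were not. Of the 60 genes, 58 were higher in drought on both days and 2 were higher at day 40 and lower at day 50. At least 2-fold higher on both days were 41 genes. Of the 49 whose pair mean reached 5 CPM on both days, 35 were, where 1.92% of 22634 genes were. The log2 ratio was larger at day 40 than at day 50 for 51 of the 60 genes, which restates the higher day 40 percentage in drought and is 42 by library totals. BnaCnng23520D showed this most plainly among the genes above, with a ratio of 52.9 at day 40 and 2.11 at day 50. BnaCnng07060D showed the reverse order, with 3.56 at day 40 and 10.8 at day 50.

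Genes just above the read limit were also mostly higher in drought, with lower medians than the set. Of the Bna genes with 4 to 30 reads at day 30 and at least 10 CPM in both libraries of day 50, 139 in all, 109 reached a pair mean of 5 CPM at day 40. Their median log2 ratio was 1.94 at day 40, and 87.2% were at least 2-fold higher in drought, against 91.8% of the set. At day 50 the median of the 139 was 0.93 and 46.8% were at least 2-fold higher, against 68.3% of the set. The other Bna genes on at day 50 had medians of 0.06 at day 40 and 0.09 at day 50. These differences between gene groups were not tested.

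**Figure D4:**
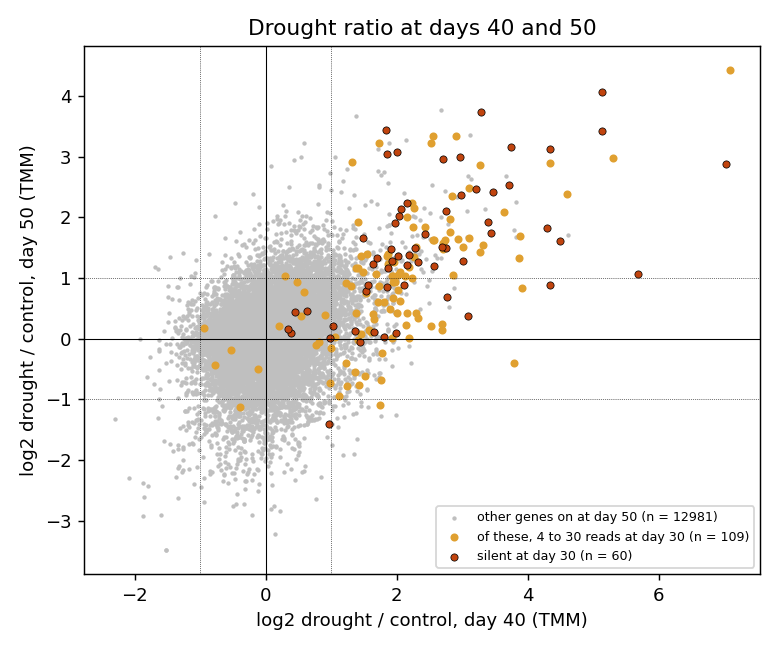
Log2 ratio of drought to control at day 40 (horizontal) and day 50 (vertical), TMM-scaled, for the 60 genes silent at day 30, for genes with 4 to 30 reads at day 30, and for other Bna genes on at day 50; dotted lines mark 2-fold. All 60 genes lie right of 0, and 58 lie above 0.

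Over all days together, the drought term of the same edgeR fit called 1 of the 60 genes at an adjusted p below 0.05, higher in drought, where 0.00602% of 49832 genes were called higher and 0% lower. The called gene was BnaC03g24290D, with 1, 106 and 3513 reads in drought at days 30, 40 and 50 and 0, 20 and 266 in control. Its log2 fold change was 3.55, with an approximate standard error of 0.37 taken from the F statistic, and its adjusted p was 0.0474 in edgeR's test. It was higher in drought on 3 of 3 days, of which day 30 rests on a single read. Its adjusted p was 0.184 without the control library of day 40 and 0.0632 without the drought library of that day. BnaCnng27950D and BnaA05g34530D followed, both with an adjusted p of 0.0613 in edgeR's test and with log2 fold changes of 3.41 and 4.35. BnaCnng27950D, named for this place after its values were seen, had 17.5 and 105 CPM at days 40 and 50 in drought, against 1.80 and 11.9 CPM in control. At an unadjusted p below 0.05, 48 of the 60 genes were higher in drought, where 4.13% of all genes tested were, and 0 were lower, where 3.20% were. The median log2 fold change of the 60 was 1.85, against -0.03 over all genes tested, and 59 of the 60 were above 0. Of the genes named, BnaAnng14390D had the single negative value, -0.32, with an adjusted p of 0.913.

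The number of adjusted calls varied with the tool and the libraries. DESeq2 called 20 of the 60, where 0.431% of all genes were called higher, and limma voom 20, where 0.235% were, all 20 higher in drought with each tool. Without day 30, where the set has almost no reads, edgeR called 15 of the 60, where 0.253% of 45435 genes were called higher. Without the control or the drought library of day 40 edgeR called 0, where 0.00559% and 0.0112% of all genes were called higher. At an unadjusted p below 0.05 in these fits, 33 and 34 of the 60 were higher in drought, and 1 was lower in each. The share of all genes at that unadjusted limit is not given for these fits, so those counts have no background beside them. Without the control library of day 30, 40 or 50, and without the drought library of each of these days, the number of genes with a positive log2 fold change ran from 55 to 60. The fit has 1 library per treatment and day, so its measure of error comes from how the drought change varied over the days, and separate plants may vary otherwise.

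Both subgenomes supplied the set. By ID, 28 genes belonged to A and 32 to C, so that A held 46.7% of the set, against 48.5% of the A and C genes of at least 10 CPM in both libraries of day 50. The median log2 ratio of drought to control was 2.07 in A genes and 2.26 in C genes at day 40, and 1.42 and 1.44 at day 50. At least 2-fold higher in drought at day 40, at any level, were 25 of the A genes and 29 of the C genes, and at day 50 20 and 21 were. The day 40 level was a median of 17.2% of that of day 50 in drought and 14.5% in control for A genes, and 20.2% in drought and 14.1% in control for C genes. A difference between the subgenomes was not tested.

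The genes lay on most of the chromosomes by their IDs. The 54 genes whose ID gives a chromosome lay on 18 of 19 chromosomes, and 6 genes had no chromosome number. Chromosome C03 held the most, 9 genes or 15.0% of the set, against 7.65% of the genes on at day 50, and C07 held 0, against 4.87%. In this naming scheme the number in an ID counts along the chromosome. No 2 genes of the set on a chromosome had numbers within 50 of each other, and the smallest gap was 260. The numbers of the set all end in 0, so a limit of 50 spans few genes and cannot exclude looser clusters. On C03, BnaC03g39230D, BnaC03g40050D, BnaC03g41230D, BnaC03g42310D and BnaC03g42830D followed one another in the set, a stretch picked after the IDs were seen. Clustering was not tested. With no genome used here, coordinates and exon positions are not reported.

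**Figure D5:**
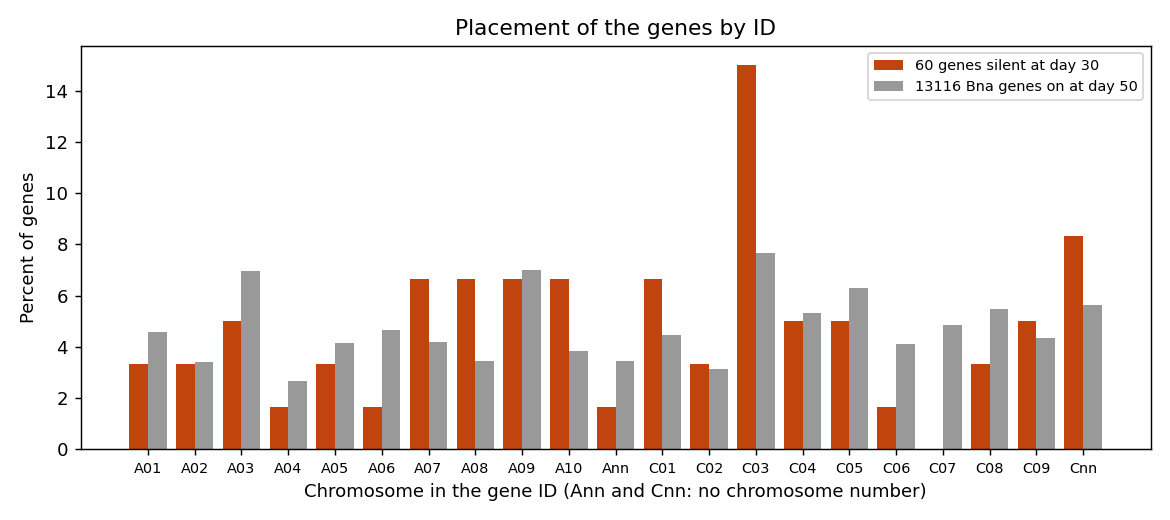
Share of the 60 genes and of the 13116 Bna genes of at least 10 CPM in both libraries of day 50 on each chromosome named in the ID, in percent; Ann and Cnn are IDs with no chromosome number. C03 holds 15.0% of the 60 genes against 7.65%, and C07 holds none of the 60.

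The median gene of the set was shorter than that of the other genes on at day 50, and gene length moved with the drought ratio of day 40. The part of length in the drought ratio was measured by class and by removing its trend. The median length was 1193 bases in the set, with a range of 243 to 4407, and 1851 bases in the other Bna genes on at day 50. At day 40 the 15 genes of the set up to 700 bases long had a median log2 ratio of 3.74, against 0.68 in 856 other genes of that length. The 26 genes over 700 and up to 1500 bases had 2.16, against 0.30 in other genes. The 19 genes over 1500 bases had 1.66, against -0.09 in other genes. In each of the 3 length classes the set stood above the other genes. The other genes in these classes were limited to a pair mean of at least 5 CPM at day 40, and the 60 genes were not. With the length trend of all genes removed, a step chosen after the data had been seen, the median of the 60 at day 40 was 1.96, and 60 of 60 were above 0. At day 50 the median was then 1.34, with 55 of 60 above 0 in place of 58 and 37 at least 2-fold higher in place of 41. At day 50 the medians in the 3 length classes were 1.27, 1.50 and 1.33 in the set, against 0.37, 0.10 and 0.07 in other genes.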

How the data were processed

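RNA of 6 seed libraries was sequenced as paired reads on an Illumina HiSeq instrument, per the labels' protocols. The authors deposited raw counts for each gene and library in a single table, beside a gene length. They also deposited 1 file per library of non-whole values, taken here as FPKM since the submitters' processing notes list Cufflinks. Which aligner, counter, build and strand setting were used is not given in the sources used here. The genes of this set, the rule for the genes named and the tests were chosen with earlier results of these data known.

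CPM was the deposited count per 1000000 reads of the library total. Ratios of drought to control used TMM factors and, on the log2 scale, a prior of 0.5 reads, and were counted past 2-fold at a pair mean of at least 5 CPM. Ratios printed as folds for single genes have no prior, and their 95% intervals are exact and conditional on the summed count. Tests across all genes used edgeR 4.0.16 in R 4.3.3, with filterByExpr grouped by day, a quasi-likelihood fit with terms for day and treatment, two-sided tests and Benjamini-Hochberg adjustment at 0.05. All 60 genes passed the filter, which their level at day 50 ensured by the choice of genes. DESeq2 1.42.0 and limma 3.58.1 were alternatives. The scripts were tested on simulated data. The genes named were the 4 of highest mean CPM at day 50, the 3 highest and 3 lowest in day 40 over day 50 level and in each day's ratio (at a pair mean of at least 5 CPM), those called for drought, and the 2 nearest to either side of the CPM limit. Replicate samples of a group were not among the libraries used.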

Additional observations from a re-analysis of the deposited data

Results flagged for a closer look

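For 2 genes drought lay above control at day 40 and below it at day 50, each day with 1 library per treatment, and the difference between the days was not tested. BnaAnng14390D had a log2 ratio of drought to control of 0.97 at day 40 and of -1.41 at day 50. BnaC01g00220D had 1.44 at day 40 and -0.054 at day 50, where the counting interval of its ratio includes 1.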

How the results depend on the processing

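The labels give no replicate numbers to block by, and the day term of the fit already sets drought against control within each day. The number of the 60 genes called higher in drought over all days, 1 with edgeR, was 12 with library totals in place of TMM, 39 without a filter on low counts, 20 with DESeq2, 20 with limma voom and 15 without day 30. With each library left out in turn it ran from 0 to 37, while the share of all genes called higher ran from 0.00559% to 0.758%. In all of these settings 0 of the 60 were called lower. Over all genes the calls higher in drought, 3 with edgeR, were 66, 365, 215, 117 and 115 in the first 5 of these settings, so the background moved as well. The number called higher at day 50 than at day 40 was 43 with edgeR, where 0.927% of all genes were. It is a description, since day 50 was high by choice. It was 0 with limma voom, where 0.399% of all genes were called, and 54 without the control library of day 30, where 2.36% were. Most of the 43 calls were lost without the control library of day 40, which left 1 library at that day. The median log2 fold change of the 60 was then 2.32, and it was 3.13 without the drought library of day 40. The cause of these differences was not tested. The number that rose from day 30 to day 40 ran from 56 to 60 over all settings. With no read allowed at day 30 the set held 20 genes, and with up to 10 reads 105. Its share of the reads was then 0.0332% and 0.319% in drought at day 40, 0.0105% and 0.0966% in control at day 40, 0.202% and 1.60% in drought at day 50, and 0.0653% and 0.549% in control at day 50, by the number of genes summed. The percentage of genes at least 2-fold higher in drought ran from 89.8% to 100% at day 40 and from 61.7% to 76.5% at day 50 over the other scalings, priors, level limits, FPKM, length correction and gene choices. The median day 40 level ran from 17.2% to 21.9% of day 50 in drought and from 11.9% to 17.2% in control. The share of A genes ran from 37.1% to 55.0%. Depth limits the ratios of day 40, where control counts of the set went down to 4 reads.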
